A study of Homo sapiens with 8 samples.

Results

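The mRNAs of the respiratory chain and ATP synthase were followed through 8 RNA-seq libraries of prostate cancer cells. Members were chosen by gene name: 38 subunit genes of complex I, 4 of complex II, 8 of complex III, 10 of complex IV and 12 of complex V in the nucleus, and all 13 protein-coding genes of mitochondrial DNA (7 of complex I, 1 of complex III, 3 of complex IV and 2 of complex V). These 85 genes, of 33221 in the deposited table, comprised 72 nuclear and 13 mitochondrial genes; the name pattern placed NDUFA4, now assigned to complex IV, with complex I. The libraries formed 4 groups of 2. PC3 EphA2 KO were cells labelled PC3 (a line from a bone metastasis) infected with CRISPR/Cas9 lentivirus with a guide RNA to EphA2, and PC3 control were PC3-labelled cells given lentivirus with a non-targeting guide, both kept for 72 h. DU145 EphA2 OE were cells labelled DU145 (a line from a brain metastasis) transfected with an EphA2 expression plasmid, and DU145 control were DU145-labelled cells given a control plasmid, both kept for 48 h. The labels mention no selection of a clone.

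Complexes I and II pass electrons from NADH and succinate to ubiquinone, complex III passes them to cytochrome c and complex IV to oxygen; complexes I, III and IV pump protons, and complex V makes ATP as protons flow back. Mitochondrial DNA is transcribed from both strands into long precursors that are cut into mRNAs, rRNAs and tRNAs, so its mRNAs are made together, while each nuclear subunit gene has its own promoter, often with sites for NRF1, for ETS factors such as GABP, or for YY1. Complex II is the only complex with no mitochondrially encoded subunit. EphA2 is a cell-surface tyrosine kinase that binds ephrins of class A.

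Promoter sequence, which the name rule did not use, was looked at first. RefSeq windows around gene starts (250 bases before to 50 after, GRCh38.p14) were matched for 60 of the 72 nuclear members, taking for each gene the listed start nearest its 5′ end in the deposited table. The NRF1 core GCGCATGC, searched on both strands, was in 13 of 60 windows (21.7%), against 5.07% of the windows of 12848 tested genes and 3.05% of all 35116 windows. The ETS core CCGGAAG was in 17 of 60 (28.3%), against 17.2% and 10.3%. The YY1 core AAGATGG was in 16 of 60 (26.7%), against 7.15% and 5.84%. This core lay before the start only in NDUFA3, NDUFA5, COX7C and ATP5PF, and in the other members that hold it every match lay at or after the start. Of all 55 matches of the 3 motifs 38 lay before the start. At least 1 of the 3 motifs, none of which contains another, was in 36 of 60 member windows (60.0%), against 26.3% and 17.6%. By complex that was 17 of 32 windows for complex I, 2 of 3 for complex II, 5 of 7 for complex III, 6 of 9 for complex IV and 6 of 9 for complex V. Taken singly, the ETS core was in 5 of 32 windows of complex I (15.6%), below the share of tested genes. The NRF1 core was in 0 of 7 windows of complex III. For every other motif and complex the share lay above that of tested genes, in some on few windows. A match is a run of letters and not a measured binding site. Neither background was matched to the members by level of expression.

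The stretches below come from 4 members described in the comparisons that follow whose window holds a motif before the start, chosen after their values were seen, each read on the gene's own strand with the motif in capitals. NDUFS3 (chr11:47578970-47578999, plus strand) holds the ETS core on both strands within 30 bases. Before the start NDUFA6 (chr22:42090921-42090948, minus strand) holds the NRF1 core and SDHB (chr1:17054215-17054242 and chr1:17054144-17054170, minus strand) the NRF1 and ETS cores. ATP5PF (chr21:25735157-25735184, chr21:25735095-25735121 and chr21:25735068-25735094, minus strand) holds all 3 there. The windows of NDUFA6 and SDHB also hold the YY1 core after the start, from bases 26 and 11, which is not shown.
NDUFS3 ETS core: cgCTTCCGGctccacgtccgcCCGGAAGaa
NDUFA6 NRF1 site: ctgtagatgaGCATGCGCagcacccacc
SDHB NRF1 site: agccaaatggGCATGCGCcgctactgcg
SDHB ETS core: acccgggaaaCCGGAAGccgcctccca
ATP5PF NRF1 site: cactcaaagaGCGCATGCgtacagagca
ATP5PF YY1 core: aggcgaagaaAAGATGGcggaggctgt
ATP5PF ETS core: gccaggggacCCGGAAGcacttaccct

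**Figure D1:**
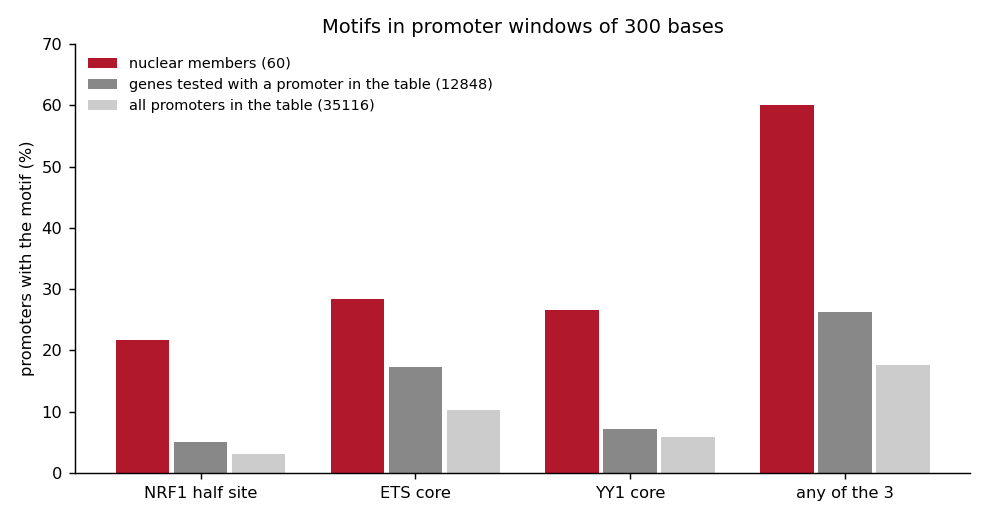
Share of promoter windows (y axis, percent) that hold each motif on either strand, for 60 nuclear members, 12848 tested genes and all 35116 windows. Members lie above both backgrounds for each motif, with 60.0% against 26.3% and 17.6% for any of the 3.

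Depth was close to even, at 57571919 to 60951530 counts per library, and the lowest count of any member in any library was 901. EPHA2 itself stood at 41.7 and 37.7 FPKM in PC3 EphA2 KO, against 55.1 and 55.6 FPKM in PC3 control, and at 69.3 and 81.0 FPKM in DU145 EphA2 OE, against 58.8 and 58.9 FPKM in DU145 control. Its levels thus moved with the labels, without the loss of mRNA that a knockout can bring. CTNNA1, a gene PC3 cells are known to lack, was at 38.0 to 45.6 FPKM in libraries labelled DU145 and at 36.5 to 45.8 FPKM in libraries labelled PC3, so line names are used here as labels only. The control columns are headed NC and Vector, which no label repeats; NC was read by convention as the lentivirus control of PC3 and Vector as the plasmid control of DU145, and this reading could not be checked. Epithelial markers summed to 329 to 422 FPKM in every library, while the fibroblast list summed to 0.722 FPKM at most and the endothelial list to 0.168. Of the leukocyte markers PTPRC did not exceed 0.0121 FPKM, whereas CD68, a lysosomal protein used as a macrophage marker, was at 13.8 to 28.0 FPKM. The part of these in the results was not tested. In bulk RNA a smaller share of cells and less RNA per cell cannot be told apart.

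Levels differed far more between the 2 genomes than between conditions. On the deposited FPKM scale, which divides fragments by gene length and depth, the 13 mitochondrial mRNAs ran from 1473 (MT-ATP6) to 12810.1 FPKM (MT-ATP8) as means of 8 libraries, with a median of 5392. The 72 nuclear members ran from 4.39 (NDUFA5) to 309 FPKM (ATP5F1B), with a median of 26.0, which is 207 times lower. Nuclear medians by complex were 19.6 FPKM for complex I, 29.1 for complex II, 33.8 for complex III, 39.0 for complex IV and 30.2 for complex V. The most abundant nuclear mRNAs encode the beta subunit of ATP synthase (ATP5F1B), then COX8A at 227 FPKM, a small subunit of complex IV, and UQCRH at 103 FPKM, the hinge protein of complex III. NDUFS5 led complex I at 91.4 FPKM.

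The length behind FPKM bears on this ratio. For 84.1% of genes it was within 5% of the union of all annotated exons, retained introns included. For nuclear members that length was a median of 1.93 times the principal transcript of GENCODE 29. Lengths here were divided by 1.18, the factor that sets the median mitochondrial gene equal to its transcript, so the match at that median was fixed by the scaling. The highest ratio of a mitochondrial gene was then 1.00001. With counts per kilobase of the principal transcript instead, a choice made after seeing the data, the median mitochondrial mRNA was 121 times the median nuclear member and the order of complexes changed: nuclear medians were 95.0 (counts per kilobase scaled to a common total) for complex I, 164 for complex II, 127 for complex III, 169 for complex IV and 180 for complex V. On this scale the median nuclear member ranked at the 93.7 percentile of 22257 genes. NDUFA9 was lowest, at the 66.1 percentile, and its principal transcript has 8363 bases, against a median of 1080 for nuclear members.

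**Figure D2:**
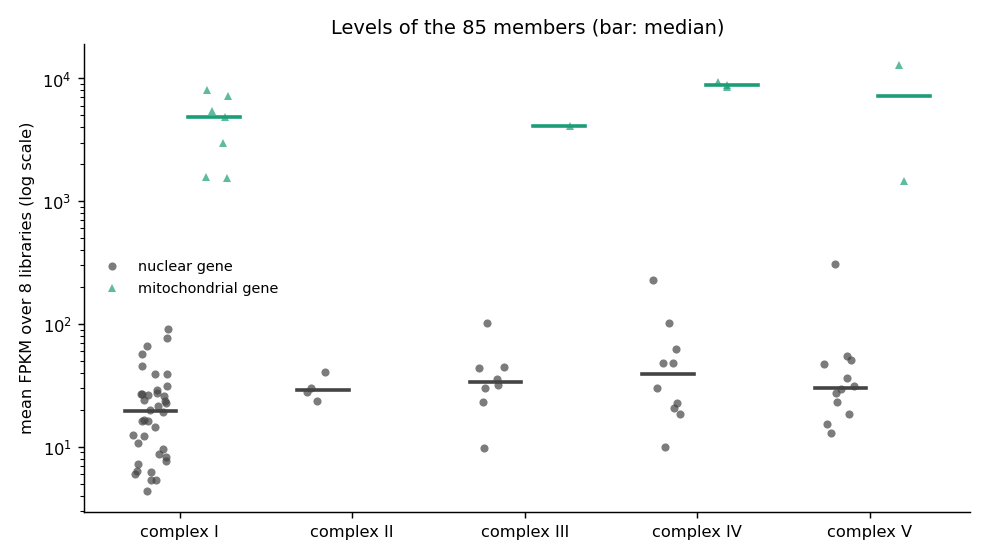
Mean FPKM over 8 libraries (y axis, log scale) of each member by complex, with circles for nuclear and triangles for mitochondrial genes and bars for medians. Mitochondrial genes, 1473 FPKM and above, lie over every nuclear gene, 309 FPKM and below.

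No member passed the threshold (adjusted p below 0.05 over 22727 tested genes) in PC3 EphA2 KO against PC3 control: 0 of 85 in edgeR's quasi-likelihood test, which called 0.0264% of all genes, and 0 of 85 in DESeq2, which called 190 genes (0.87%). At an unadjusted p below 0.05 edgeR gave 6 of 85 members, or 7.06% against 6.62% of all genes. All 6 were higher in the knockout, where all genes split into 3.11% higher and 3.51% lower. The direction was less even than the calls. Of 72 nuclear members 59 had a log2 fold change above 0, against 49.3% of all genes, and their median was 0.13, against -0.0021 over all genes. Overlap of groups was read on CPM scaled by TMM (trimmed mean of M-values). In 37 of 72 both knockout libraries lay above both controls, against 21.4% of all genes, and in 3 of 72 below, against 21.6%. By complex, 31 of 38 nuclear subunits of complex I lay higher, 2 of 4 of complex II, 6 of 8 of complex III, 10 of 10 of complex IV and 10 of 12 of complex V. Of the 13 mitochondrial mRNAs 8 lay higher, with a median of 0.03, which was -0.02 without the first PC3 control and 0.10 without the second. With the control columns of the lines exchanged, 53 of 72 nuclear members lay higher with a median of 0.08, and the mitochondrial median was -0.07. Of the 36 members with a promoter motif 31 lay higher in the knockout (median 0.14), and of the 24 without one 18 did (median 0.10).

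In DU145 EphA2 OE against DU145 control 0 of 85 members passed in edgeR, which called 0.0396% of all genes, and 0 of 85 in DESeq2, which called 309 genes (1.44%). At an unadjusted p below 0.05 edgeR gave 1 member higher and 4 lower with the plasmid, 5.88% of members against 9.06% of all genes (5.01% higher and 4.05% lower). Of 72 nuclear members 38 lay higher, against 51.1% of all genes, and their median was 0.0055, against 0.0087 over all genes. Both plasmid libraries lay above both controls for 6 of 72, against 19.1% of all genes, and below for 8 of 72, against 18.2%. Nuclear subunits lying higher were 20 of 38 in complex I, 2 of 4 in complex II, 4 of 8 in complex III, 7 of 10 in complex IV and 5 of 12 in complex V. Of the 13 mitochondrial mRNAs 4 lay higher, with a median of -0.02. That direction turned with the control columns exchanged (8 of 13 higher, median 0.03) and in limma on log2(FPKM + 1) (7 of 13, median 0.02), and the median was 0.0032 without the first DU145 control and -0.06 without the second. The nuclear median rested on single libraries: it was -0.10 without the first DU145 control and 0.13 without the second.

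**Figure D3:**
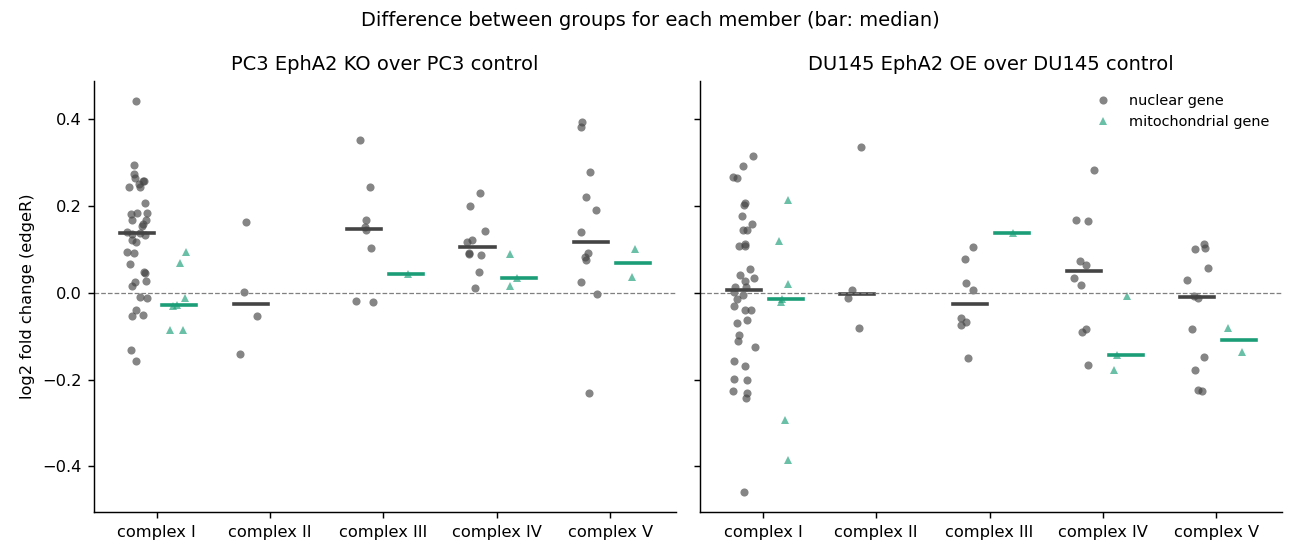
Log2 fold change in edgeR (y axis) of each member by complex, for PC3 EphA2 KO over PC3 control and DU145 EphA2 OE over DU145 control, with circles for nuclear and triangles for mitochondrial genes and bars for medians. Most circles lie above 0 in the left panel (59 of 72), and they spread on both sides of 0 in the right (38 of 72); no point passed the adjusted threshold.

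Complex I held the member with the smallest p of the knockout comparison. NDUFS3 (ENSG00000213619, GRCh38 chromosome 11, 47565336 to 47584562, plus strand), a core subunit of the electron-carrying arm, was at 6.97 and 6.65 FPKM in PC3 EphA2 KO, against 5.46 and 4.70 FPKM in PC3 control. The groups did not overlap, and the difference missed the threshold. NDUFS3 had a log2 fold change of 0.44 (SE 0.14), with an unadjusted p = 0.0159 and an adjusted p = 0.674 in edgeR. In the other line NDUFS3 was at 5.73 and 5.53 FPKM in DU145 EphA2 OE, against 5.73 and 6.80 FPKM in DU145 control (log2 fold change -0.20, SE 0.14, adjusted p = 0.720 in edgeR), where the first plasmid library and the first control were level in FPKM. NDUFS3 overlaps PTPMT1, KBTBD4 and CELF1 in the table, and its mean level was the fourth lowest of the 38 nuclear subunits of the complex. For 5 other core subunits the log2 fold changes in the knockout were -0.01 for NDUFS1, 0.26 for NDUFS7, 0.18 for NDUFS8, -0.16 for NDUFV1 and 0.17 for NDUFV2.

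Accessory subunits of complex I surround the core. NDUFC2, a small one of the membrane arm, was at 29.98 and 30.4 FPKM in PC3 EphA2 KO, against 26.2 and 25.02 FPKM in PC3 control (log2 fold change 0.26, SE 0.10, unadjusted p = 0.0293 and adjusted p = 0.732 in edgeR), and at 24.4 and 23.7 FPKM in DU145 EphA2 OE, against 25.7 and 27.9 FPKM in DU145 control. NDUFC2 had a log2 fold change of -0.20 (SE 0.10), with an adjusted p = 0.590 in edgeR. It lay above its control in the knockout and below it with the plasmid, with no overlap in either line. NDUFB8, another membrane-arm subunit, named here after its values were seen, was at 43.4 and 47.3 FPKM in PC3 EphA2 KO, against 38.6 and 38.1 FPKM in PC3 control (log2 fold change 0.26, SE 0.11, unadjusted p = 0.0441 and adjusted p = 0.748 in edgeR), and its plasmid log2 fold change was -0.0048. NDUFS5, the most abundant nuclear subunit of the complex by FPKM, was at 98.7 and 100.5 FPKM in PC3 EphA2 KO, against 85.9 and 92.1 FPKM in PC3 control. NDUFS5 had a log2 fold change of 0.18 (SE 0.12), with an adjusted p = 0.820 in edgeR. NDUFA5, the least abundant by FPKM, was at 4.65 and 4.59 FPKM in PC3 EphA2 KO, against 4.90 and 4.75 FPKM in PC3 control. NDUFA5 had a log2 fold change of -0.04 (SE 0.11), with an adjusted p = 0.988 in edgeR.

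NDUFA6 (ENSG00000184983, GRCh38 chromosome 22, 42085526 to 42090884, minus strand), an accessory subunit of the LYR protein family, had the lowest log2 fold change of all 85 members with the EphA2 plasmid. It was at 20.48 and 17.8 FPKM in DU145 EphA2 OE, against 24.2 and 27 FPKM in DU145 control, without overlap. NDUFA6 had a log2 fold change of -0.46 (SE 0.18), with an unadjusted p = 0.0326 and an adjusted p = 0.522 in edgeR. In the knockout it was at 21.4 and 27.6 FPKM in PC3 EphA2 KO, against 18.99 and 23 FPKM in PC3 control, with overlap. NDUFA6 had a log2 fold change of 0.24 (SE 0.18), with an adjusted p = 0.836 in edgeR. NDUFV1, which binds NADH, was at 12.9 and 11.1 FPKM in PC3 EphA2 KO, against 15.53 and 11.7 FPKM in PC3 control and at 11.1 and 15.8 FPKM in DU145 EphA2 OE, against 10.2 and 11.4 FPKM in DU145 control, with overlap in both lines. NDUFB7 was at 41.2 and 44.4 FPKM in DU145 EphA2 OE, against 37.96 and 37.04 FPKM in DU145 control, a difference of 0.14 on the log2 scale.

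A few subunits of complex I varied more between replicates than between groups. NDUFA12, named after its values were seen, was at 34.9 and 19.9 FPKM in PC3 EphA2 KO, against 29.4 and 31.4 FPKM in PC3 control, and at 17.2 and 34.4 FPKM in DU145 EphA2 OE, against 28 and 15.2 FPKM in DU145 control. Its replicates lay far apart in 3 groups and close together in PC3 control. NDUFA7 was at 17.4 and 24.4 FPKM in DU145 EphA2 OE, against 9.32 and 23.1 FPKM in DU145 control, a fold of 2.496 between the DU145 controls and the highest between replicates of any member. NDUFA7 overlaps RPS28 in the table; NDUFA12 overlaps no gene there. NDUFB9 was at 11.9 and 15.47 FPKM in PC3 EphA2 KO, against 11.3 and 15.6 FPKM in PC3 control.

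**Figure D4:**
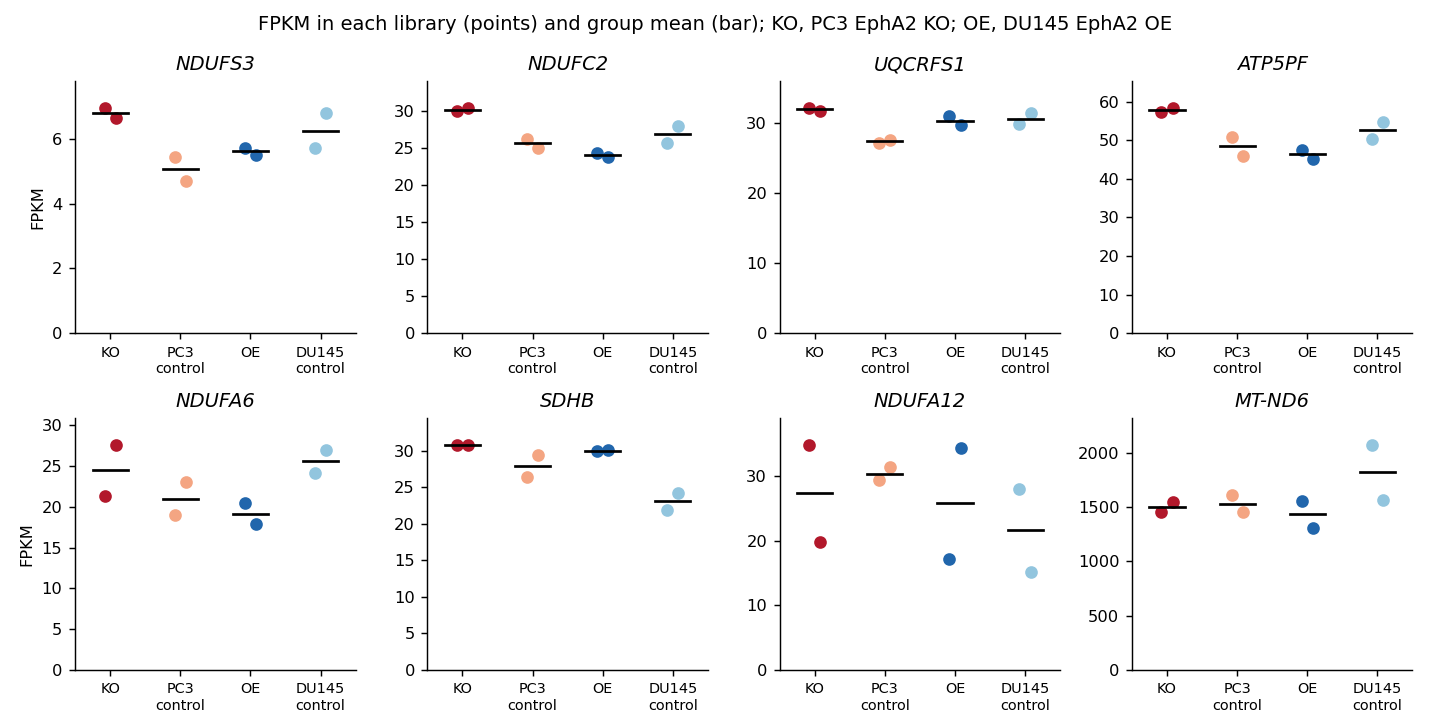
FPKM (y axis, from 0) of 8 members in each library, with points for the 2 libraries of a group and a bar for their mean. NDUFS3, NDUFC2, UQCRFS1 and ATP5PF show both knockout points above both PC3 controls, SDHB shows both plasmid points above both DU145 controls, and NDUFA12 shows replicates far apart in 3 groups.

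Complex II had the member with the smallest p in the plasmid comparison. SDHB (ENSG00000117118, GRCh38 chromosome 1, 17018722 to 17054032, minus strand), the iron-sulphur subunit, was at 29.9 and 30.1 FPKM in DU145 EphA2 OE, against 21.9 and 24.2 FPKM in DU145 control, without overlap. SDHB had a log2 fold change of 0.34 (SE 0.10), with an unadjusted p = 0.0127 and an adjusted p = 0.458 in edgeR. It was also higher without overlap in the knockout, at 30.8 and 30.8 FPKM in PC3 EphA2 KO, against 26.4 and 29.4 FPKM in PC3 control. SDHB had a log2 fold change of 0.16 (SE 0.10), with an adjusted p = 0.814 in edgeR. SDHA, the flavoprotein that oxidises succinate, was at 22.8 and 22.97 FPKM in PC3 EphA2 KO, against 26.3 and 24.9 FPKM in PC3 control (log2 fold change -0.14, SE 0.09, adjusted p = 0.824 in edgeR), and at 23.8 and 21.53 FPKM in DU145 EphA2 OE, against 22.9 and 23.7 FPKM in DU145 control. SDHA had a log2 fold change of -0.08 (SE 0.09), with an adjusted p = 0.846 in edgeR. The copies SDHAP1 to SDHAP4 together had 26.4% of the SDHA count, and SDHAP2 had a count of 0 in 3 libraries and 549 to 757 in the other 5, so reads may be split among them. The membrane anchor SDHD was at 42.7 and 37.6 FPKM in PC3 EphA2 KO, against 40.6 and 40.8 FPKM in PC3 control, with overlap, and SDHC, the other anchor, differed by -0.05 in the knockout and 0.01 with the plasmid on the log2 scale.

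In complex III the Rieske iron-sulphur protein UQCRFS1 (ENSG00000169021, GRCh38 chromosome 19, 29205320 to 29213151, minus strand) was at 32.2 and 31.8 FPKM in PC3 EphA2 KO, against 27.2 and 27.7 FPKM in PC3 control, without overlap. UQCRFS1 had a log2 fold change of 0.24 (SE 0.09), with an unadjusted p = 0.0283 and an adjusted p = 0.729 in edgeR. With the plasmid it was at 31.1 and 29.7 FPKM in DU145 EphA2 OE, against 29.9 and 31.49 FPKM in DU145 control. UQCRFS1 had a log2 fold change of -0.06 (SE 0.09), with an adjusted p = 0.898 in edgeR. UQCRQ, a small subunit next to cytochrome b, had the highest log2 fold change of the complex in the knockout, at 32.1 and 37.8 FPKM in PC3 EphA2 KO, against 29.53 and 26.05 FPKM in PC3 control. UQCRQ had a log2 fold change of 0.35 (SE 0.17), with an adjusted p = 0.759 in edgeR. The core proteins UQCRC1 and UQCRC2 were the 2 members that did not lie higher there, with log2 fold changes of -0.02 and -0.02. UQCRC1 was the subunit with the smallest p with the plasmid, at 43 and 42.3 FPKM in DU145 EphA2 OE, against 47.6 and 44.1 FPKM in DU145 control. UQCRC1 had a log2 fold change of -0.15 (SE 0.11), with an adjusted p = 0.718 in edgeR. UQCRH, the most abundant, was at 111 and 113 FPKM in PC3 EphA2 KO, against 101 and 101 FPKM in PC3 control, and UQCRB, the least abundant, at 10.52 and 9.83 FPKM in PC3 EphA2 KO, against 9.42 and 9.26 FPKM in PC3 control; in both genes the groups did not overlap. The subunit encoded in mitochondria, MT-CYB (cytochrome b), is given with the other mitochondrial mRNAs.

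All 10 nuclear subunits of complex IV had a log2 fold change above 0 in the knockout, from 0.01 (COX4I1) to 0.23 (COX7C). In 4 of 10 both knockout libraries lay above both controls on TMM-scaled CPM, against 21.4% of all genes. COX8A, the most abundant by FPKM, had the smallest p, at 238 and 230.2 FPKM in PC3 EphA2 KO, against 221 and 209 FPKM in PC3 control. COX8A had a log2 fold change of 0.14 (SE 0.12), with an adjusted p = 0.863 in edgeR. COX7C was at 47.4 and 50.3 FPKM in PC3 EphA2 KO, against 48.7 and 36 FPKM in PC3 control, where the spread between the controls was wider than the difference. COX7C had a log2 fold change of 0.23 (SE 0.26), with an adjusted p = 0.934 in edgeR. With the plasmid all 10 overlapped on TMM-scaled CPM, where 19.1% of all genes lay higher without overlap and 18.2% lower. On FPKM COX4I1, COX5A, COX5B and COX6B1 lay higher without overlap, but the share over all genes was not taken on that scale. Nuclear members as a whole also lay higher on it. In limma on log2(FPKM + 1) 46 of 72 did (median 0.05), against 38 of 72 in edgeR (median 0.0055). COX4I1, the isoform used in most tissues, was at 22.3 and 24.2 FPKM in DU145 EphA2 OE, against 18.1 and 22.02 FPKM in DU145 control (log2 fold change 0.17, SE 0.13, adjusted p = 0.739 in edgeR), COX6B1 at 56.9 and 42.9 FPKM in DU145 EphA2 OE, against 42.7 and 37.1 FPKM in DU145 control (log2 fold change 0.28) and COX7A2 at 19.8 and 16.2 FPKM in DU145 EphA2 OE, against 15.8 and 23.4 FPKM in DU145 control (log2 fold change -0.17).

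In complex V, ATP5PF (ENSG00000154723, GRCh38 chromosome 21, 25716503 to 25735646, minus strand), coupling factor 6 of the peripheral stalk, was at 57.3 and 58.4 FPKM in PC3 EphA2 KO, against 50.99 and 45.9 FPKM in PC3 control, without overlap. ATP5PF had a log2 fold change of 0.28 (SE 0.10), with an unadjusted p = 0.0264 and an adjusted p = 0.719 in edgeR. With the plasmid it was at 47.6 and 45.1 FPKM in DU145 EphA2 OE, against 50.4 and 54.8 FPKM in DU145 control, also without overlap and on the other side. ATP5PF had a log2 fold change of -0.23 (SE 0.10), with an unadjusted p = 0.0552 and an adjusted p = 0.564 in edgeR. In the table ATP5PF overlaps GABPA, its divergent neighbour, and JAM2. ATP5PO, the stalk subunit OSCP, named after its values were seen, was at 55.3 and 51.9 FPKM in PC3 EphA2 KO, against 37.1 and 46.4 FPKM in PC3 control. ATP5PO had a log2 fold change of 0.38 (SE 0.15), with an unadjusted p = 0.0362 and an adjusted p = 0.732 in edgeR. ATP5F1D, the delta subunit of the central stalk, was at 17.3 and 15.4 FPKM in PC3 EphA2 KO, against 10.2 and 14.99 FPKM in PC3 control, with the first control lowest of all 8 libraries (log2 fold change 0.39, SE 0.19, adjusted p = 0.756 in edgeR), and at 15.6 and 14.4 FPKM in DU145 EphA2 OE, against 16.9 and 17.1 FPKM in DU145 control. ATP5F1D had a log2 fold change of -0.22 (SE 0.19), with an adjusted p = 0.764 in edgeR.

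The catalytic subunits lay level or lower in the knockout. ATP5F1A, the alpha subunit, had the lowest log2 fold change of all members in the knockout, at 17.2 and 16.6 FPKM in PC3 EphA2 KO, against 21.05 and 19.3 FPKM in PC3 control, without overlap. ATP5F1A had a log2 fold change of -0.23 (SE 0.12), with an adjusted p = 0.784 in edgeR. ATP5F1B, the beta subunit, was at 317 and 304 FPKM in PC3 EphA2 KO, against 292 and 327 FPKM in PC3 control, with overlap (log2 fold change 0.02), and at 333 and 262 FPKM in DU145 EphA2 OE, against 314 and 327 FPKM in DU145 control (log2 fold change -0.15). ATP5PD of the peripheral stalk was at 31.4 and 32.4 FPKM in DU145 EphA2 OE, against 24.9 and 32.3 FPKM in DU145 control, the highest log2 fold change of the complex with the plasmid at 0.11. ATP5MC3, a gene for the c-ring and the least abundant of the complex, was at 13.8 and 14.6 FPKM in PC3 EphA2 KO, against 12.9 and 12.4 FPKM in PC3 control. ATP5MC3 had a log2 fold change of 0.19 (SE 0.13), with an adjusted p = 0.826 in edgeR.

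Mitochondrial mRNAs took 7.00% to 7.64% of counts in each library and nuclear members 0.629% to 0.715%. Their share was 7.33% ± 0.0734 in PC3 EphA2 KO and 7.28% ± 0.39 in PC3 control, and 7.41% ± 0.317 in DU145 EphA2 OE and 7.43% ± 0.228 in DU145 control (SD, n = 2 each). These differences were smaller than the spread between replicates. Nuclear members held 0.714% ± 0.00138 in PC3 EphA2 KO and 0.68% ± 0.00211 in PC3 control, where both knockout libraries lay above both controls, and 0.688% ± 0.0351 in DU145 EphA2 OE and 0.67% ± 0.0588 in DU145 control, with overlap. For such a single value 2 libraries against 2 allow no two-sided exact permutation p below 0.333.

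Among complex I mRNAs of mitochondria, MT-ND5 and MT-ND6 stood at low and similar levels (1556 and 1574 FPKM as means of 8 libraries). They lie end to end on opposite strands (MT-ND5 at 12337 to 14148 and MT-ND6 at 14149 to 14673 of the mitochondrial genome). MT-ND6, the only mRNA of the light strand, was at 1560.2 and 1313 FPKM in DU145 EphA2 OE, against 2078 and 1567 FPKM in DU145 control, without overlap. MT-ND6 had a log2 fold change of -0.39 (SE 0.15), with an unadjusted p = 0.0348 and an adjusted p = 0.524 in edgeR. MT-ND5 was at 1595 and 1369.5 FPKM in DU145 EphA2 OE, against 1968 and 1560.2 FPKM in DU145 control, with overlap. MT-ND5 had a log2 fold change of -0.29 (SE 0.12), with an unadjusted p = 0.0467 and an adjusted p = 0.545 in edgeR. In both genes the first DU145 control was the highest of the 8 libraries, and the other DU145 control lay near the first plasmid library. In the knockout MT-ND5 was at 1416 and 1449.9 FPKM in PC3 EphA2 KO, against 1555 and 1533 FPKM in PC3 control (without overlap, log2 fold change -0.09) and MT-ND6 at 1454 and 1546 FPKM in PC3 EphA2 KO, against 1613 and 1458 FPKM in PC3 control (log2 fold change -0.01).

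The other complex I mRNAs went no common way with the plasmid. MT-ND3 was at 2956 and 3646 FPKM in DU145 EphA2 OE, against 2667 and 2844 FPKM in DU145 control (log2 fold change 0.21, SE 0.11, adjusted p = 0.601 in edgeR) and MT-ND2 at 5497 and 6049 FPKM in DU145 EphA2 OE, against 5112 and 5190.3 FPKM in DU145 control (log2 fold change 0.12, SE 0.07, adjusted p = 0.658 in edgeR), both without overlap and on the higher side. MT-ND1, MT-ND4 and MT-ND4L overlapped, with log2 fold changes of 0.02, -0.01 and -0.02. In the knockout the 5 genes ran from -0.09 (MT-ND4L) to 0.09 (MT-ND1), with overlap on TMM-scaled CPM; by FPKM MT-ND4L lay lower without overlap. MT-CYB was at 3924 and 4857 FPKM in DU145 EphA2 OE, against 4011 and 3722 FPKM in DU145 control, where the second plasmid library was the highest of the 8, and at 4164 and 4093 FPKM in PC3 EphA2 KO, against 3897 and 4227 FPKM in PC3 control.

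The 3 mRNAs of complex IV, MT-CO1, MT-CO2 and MT-CO3, which encode its catalytic core, were within 1.09-fold of each other as means of 8 libraries (8822, 9281 and 8551 FPKM). MT-CO1 was at 8216 and 8707 FPKM in DU145 EphA2 OE, against 9009 and 9108 FPKM in DU145 control, without overlap. MT-CO1 had a log2 fold change of -0.14 (SE 0.06), with an unadjusted p = 0.0459 and an adjusted p = 0.545 in edgeR. MT-CO3 was at 7561 and 8539.6 FPKM in DU145 EphA2 OE, against 8909 and 8737 FPKM in DU145 control, without overlap (log2 fold change -0.18, SE 0.08, unadjusted p = 0.0505 and adjusted p = 0.554 in edgeR), and MT-CO2 at 9988 and 9549.7 FPKM in DU145 EphA2 OE, against 9694 and 9355 FPKM in DU145 control (log2 fold change -0.01). All 3 lay slightly higher in the knockout, by 0.01, 0.03 and 0.09 on the log2 scale, each with overlap.

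MT-ATP8 and MT-ATP6 of complex V share 1 mRNA, yet their FPKM differed by 8.70-fold. MT-ATP8 was at 13737 and 13623 FPKM in PC3 EphA2 KO, against 12136 and 13746 FPKM in PC3 control, and at 10860.0 and 12998 FPKM in DU145 EphA2 OE, against 13359.7 and 12022 FPKM in DU145 control; MT-ATP6 was at 1485 and 1447 FPKM in PC3 EphA2 KO, against 1377 and 1525 FPKM in PC3 control, and at 1418 and 1521 FPKM in DU145 EphA2 OE, against 1507 and 1506 FPKM in DU145 control. Their reading frames overlap by 46 bases (bases 8527 to 8572, plus strand), which is 22.2% of the 207 bases of MT-ATP8 and 6.75% of the 681 bases of MT-ATP6. The shared stretch, from GENCODE 29, is shown with the start codon of MT-ATP6 and the stop codon of MT-ATP8 in capitals.
MT-ATP8 and MT-ATP6: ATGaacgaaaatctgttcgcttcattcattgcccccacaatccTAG
A read in this stretch belongs to both genes. MT-ATP6 also has a nuclear copy, MTATP6P1 (GRCh38 chromosome 1, 633696 to 634376), that is identical to it at 671 of 681 bases, with an unbroken run of 141 identical bases, and that was counted at 82.8% of MT-ATP6. MTND2P28 was counted at 16.1% of MT-ND2, with 98.4% identity, and MTCO1P12 at 1.85% of MT-CO1, with 98.7% identity. Of 61 such copies that were counted, 7 had a mean count above 100, the other 4 being MTND1P23, MTCO3P12, MTND4P12 and MTCO2P12 at 0.107% or less of their gene. With copies joined to their gene, a choice made after seeing the data, the median of mitochondrial mRNAs was 0.04 in the knockout and -0.02 with the plasmid.

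The 2 mitochondrial rRNAs are no members but share the precursor. MT-RNR2 was at 5672 and 5898 CPM (counts scaled to library size) in PC3 EphA2 KO, against 6068 and 6661 CPM in PC3 control, and at 7062 and 4927 CPM in DU145 EphA2 OE, against 7443 and 7522 CPM in DU145 control. The second plasmid library had the lowest value of all 8, while its share of mitochondrial mRNAs, 7.64% of counts, was the highest. The plasmid difference had an adjusted p = 0.581 in edgeR. The libraries were selected by oligo(dT), and rRNA and MT-ND6 carry little or no poly(A) tail; the part of this in the values was not tested.

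The ratio of the genomes followed the libraries more than the groups. Mitochondrial mRNAs over nuclear members, as a ratio of summed counts, were 10.3 and 10.2 in PC3 EphA2 KO, against 10.3 and 11.1 in PC3 control, and 10.1 and 11.5 in DU145 EphA2 OE, against 12.1 and 10.2 in DU145 control. Each of the last 3 groups held a library near 10 and a library at 11 or above. Nuclear members moved together within a library: 58 and 51 of 72 lay above their own mean of 8 libraries in PC3 EphA2 KO, against 24 and 23 in PC3 control, and 47 and 19 in DU145 EphA2 OE, against 13 and 57 in DU145 control. Their median deviation was 0.08 and 0.08 in PC3 EphA2 KO, against -0.04 and -0.05 in PC3 control, and 0.05 and -0.08 in DU145 EphA2 OE, against -0.11 and 0.10 in DU145 control, on the log2 scale. The knockout and its control were thus each tight, and the DU145 replicates differed by more than the knockout did from its control.

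**Figure D5:**
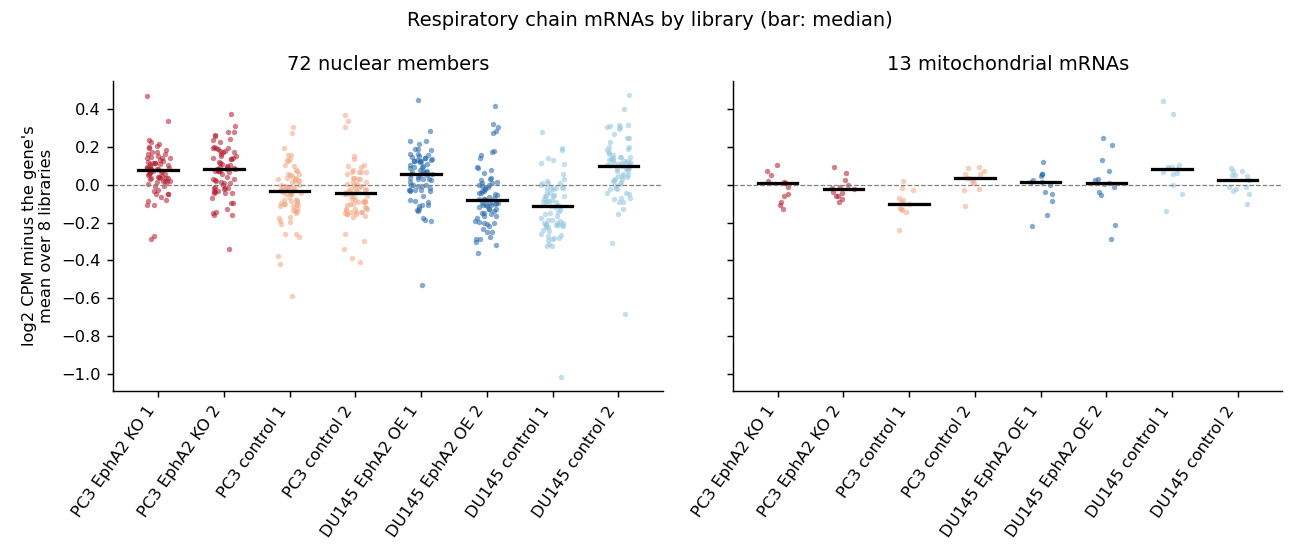
Log2 CPM of each gene minus its mean over 8 libraries (y axis), by library, for 72 nuclear members (left) and 13 mitochondrial mRNAs (right), with bars for medians. Nuclear bars sit at 0.08 in both knockout libraries and at -0.04 and -0.05 in PC3 control; in the DU145-labelled groups the bars of replicates lie on opposite sides of 0.

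Transcript length moved with the same libraries. Among genes above a mean of 20 CPM, the 393 other genes with a principal transcript under 1000 bases had a median log2 fold change of 0.11 in the knockout, the 3156 of 1000 to 3000 bases 0.04 and the 4620 of 3000 bases and over -0.03. Nuclear members in the same classes had medians of 0.14 (30 of 33 higher, against 72.3% of the other genes), 0.12 (21 of 27, against 60.4%) and 0.09 (7 of 11, against 43.2%). Members thus lay above other genes of their length class in each class, though short genes as a whole also lay higher. With the plasmid the medians of members were 0.05, -0.01 and -0.03, against 0.03, -0.02 and -0.04 for other genes. In the first DU145 control all genes under 1000 bases had a median deviation of -0.12 and in the second 0.08, alongside the nuclear members. Whether length has a part in the knockout difference beyond these values was not tested.

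The 2 responses were set against each other as the knockout fold minus the plasmid fold. In this contrast 0 of 85 members passed in edgeR, which called 0.0308% of genes, and 7 passed an unadjusted p below 0.05, or 8.24% against 10.1% of all genes. All 7 were above 0, where all genes split into 4.36% above and 5.78% below. DESeq2 called 0 of 85 members and 1.92% of genes. Of 72 nuclear members 48 were above 0, against 49.2% of all genes, with a median of 0.09, and the median of mitochondrial mRNAs was 0.07. The mitochondrial median was -0.02 without the first PC3 control and 0.18 without the second. With the control columns exchanged it was -0.11. This contrast is then the one between the lines, rescaled and with its sign turned, so that value is no separate check. The nuclear median was 0.21 without the first DU145 control and -0.01 without the second. ATP5PF had the smallest p (log2 fold change 0.50, SE 0.14, unadjusted p = 0.00829 and adjusted p = 0.352 in edgeR; adjusted p = 0.115 in DESeq2). NDUFC2 (log2 fold change 0.46, SE 0.14, adjusted p = 0.372 in edgeR) and NDUFA6 (log2 fold change 0.70, SE 0.25, adjusted p = 0.438 in edgeR) were also higher in the knockout and lower with the plasmid. By sign 29 of 72 nuclear members were so, 30 lay higher in both, 8 lower in the knockout and higher with the plasmid, and 5 lower in both. In all, 59 of 72 lay higher in the knockout and 34 of 72 lower with the plasmid. The share of all genes with opposite signs was not taken, so the 29 are not read as a result about the members. The lines share no control. MT-CO3 was the mitochondrial mRNA with the smallest p. MT-CO3 had a log2 fold change of 0.27 (SE 0.11), with an adjusted p = 0.473 in edgeR.

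Between the DU145-labelled and the PC3-labelled libraries 0 of 85 members passed in edgeR, which called 0.0704% of genes, and 0 of 85 in DESeq2, which called 0.977%. At an unadjusted p below 0.05 edgeR gave 3 members, against 7.02% of all genes (3.53% higher and 3.48% lower). Of 72 nuclear members 32 lay higher in the DU145-labelled libraries, against 49.7% of all genes, with a median of -0.01; of 13 mitochondrial mRNAs 11 did, with a median of 0.06. The mitochondrial median was 0.02 without the first PC3 control. With the control columns of the lines exchanged 5 of 13 lay higher, with a median of -0.04. This contrast is then the difference of responses, rescaled and with its sign turned, so these values are no separate check. The nuclear median ran from -0.07 without the second DU145 control to 0.03 without the first. COX7B, a small subunit of complex IV, was at 9.95, 11.4, 11.7 and 10.3 FPKM in the DU145-labelled libraries, against 8.18, 9.92, 8.77 and 8.99 FPKM in the PC3-labelled ones, without overlap. COX7B had a log2 fold change of 0.30 (SE 0.10), with an unadjusted p = 0.0166 and an adjusted p = 0.603 in edgeR. MT-CO2 was at 9988, 9550, 9694 and 9355 FPKM, against 8923, 8988, 8538 and 9218 FPKM, without overlap. MT-CO2 had a log2 fold change of 0.14 (SE 0.05), with an unadjusted p = 0.0246 and an adjusted p = 0.646 in edgeR. NDUFA5 was at 4.25, 4.08, 3.73 and 4.19 FPKM, against 4.65, 4.59, 4.90 and 4.75 FPKM, without overlap on the lower side. NDUFA5 had a log2 fold change of -0.19 (SE 0.08), with an unadjusted p = 0.0349 and an adjusted p = 0.680 in edgeR. Together with NDUFS1 these were the 4 members without overlap, 2 on each side, against 2.02% of all genes higher and 1.88% lower. NDUFB9 had the lowest log2 fold change of all 85 members between the lines, at -0.32, with overlap. The line labels and the kind of treatment cannot be told apart.

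In each of 8 further lists of genes that serve these complexes 0 genes passed in edgeR in each of the 4 contrasts. DESeq2 called a few, and those of the knockout and the plasmid comparison are given with their values. For the difference of responses DESeq2 called 1 gene of mitochondrial transcription, 1 of mitochondrial DNA maintenance and 2 mitochondrial ribosomal proteins. Between the lines it called 1 gene of mitochondrial transcription and 1 mitochondrial ribosomal protein. Assembly factors of complex I lay higher in 8 of 17 genes in the knockout and 7 of 17 with the plasmid, and those of complexes II to V in 21 and 23 of 38. TMEM70, an assembly factor of ATP synthase, was at 9.56 and 11.9 FPKM in PC3 EphA2 KO, against 6.78 and 5.88 FPKM in PC3 control (log2 fold change 0.79, SE 0.20, adjusted p = 0.540 in edgeR; adjusted p = 0.0476 in DESeq2). SCO2, a copper chaperone of complex IV, was at 1.74 and 2.28 FPKM in DU145 EphA2 OE, against 3.57 and 5.17 FPKM in DU145 control (log2 fold change -1.17, SE 0.26, adjusted p = 0.375 in edgeR; adjusted p = 0.0142 in DESeq2). NDUFAF2 was at 43.6 and 48.3 FPKM in PC3 EphA2 KO, against 37.4 and 34.2 FPKM in PC3 control and TMEM186 at 4.19 and 5.48 FPKM in DU145 EphA2 OE, against 2.83 and 4.13 FPKM in DU145 control, both complex I assembly factors. Subunits outside the name rule lay higher in 8 of 13 tested genes in the knockout and 7 of 13 with the plasmid; NDUFA4L2 was at 0.497 and 0.931 FPKM in DU145 EphA2 OE, against 0.228 and 0.199 FPKM in DU145 control. NDUFA4L2 had a log2 fold change of 1.66 (SE 0.43), with an adjusted p = 0.433 in edgeR.

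Of 17 genes of mitochondrial transcription and its nuclear regulators 9 lay higher in the knockout and 6 with the plasmid. PPARGC1B, the coactivator PGC-1 beta, was at 0.350 and 0.204 FPKM in DU145 EphA2 OE, against 1.20 and 1.07 FPKM in DU145 control, without overlap. PPARGC1B had a log2 fold change of -2.07 (SE 0.27), with an adjusted p = 0.105 in edgeR. DESeq2 called it, with an adjusted p = 3.41e-10. In the other line it was at 1.15 and 1.31 FPKM in PC3 EphA2 KO, against 1.15 and 1.21 FPKM in PC3 control. PPRC1 was at 14.2 and 16.1 FPKM in PC3 EphA2 KO, against 13.55 and 13.54 FPKM in PC3 control. PPRC1 had a log2 fold change of 0.18 (SE 0.11), with an adjusted p = 0.811 in edgeR. Mitochondrial RNA processing genes lay higher in 13 of 18 in the knockout and 6 of 18 with the plasmid, with SUPV3L1, a helicase of RNA decay, at 10.9 and 11.01 FPKM in DU145 EphA2 OE, against 8.67 and 8.67 FPKM in DU145 control. SUPV3L1 had a log2 fold change of 0.29 (SE 0.10), with an adjusted p = 0.508 in edgeR. Mitochondrial DNA maintenance genes lay higher in 6 and 5 of 12, with TK2, a thymidine kinase, at 4.44 and 4.91 FPKM in DU145 EphA2 OE, against 3.36 and 3.49 FPKM in DU145 control (log2 fold change 0.40, SE 0.11, adjusted p = 0.433 in edgeR) and at 3.56 and 3.39 FPKM in PC3 EphA2 KO, against 4.15 and 4.21 FPKM in PC3 control. TK2 had a log2 fold change of -0.25 (SE 0.11), with an adjusted p = 0.755 in edgeR.

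Enzymes of the tricarboxylic acid cycle lay higher in 11 of 18 genes in the knockout and 5 of 18 with the plasmid. SUCLG2, a subunit of succinyl-CoA ligase, was lower without overlap in both, at 14.9 and 13.8 FPKM in PC3 EphA2 KO, against 16.8 and 16.6 FPKM in PC3 control and at 14.8 and 14.6 FPKM in DU145 EphA2 OE, against 17.4 and 18.7 FPKM in DU145 control. With the plasmid SUCLG2 had a log2 fold change of -0.34 (SE 0.10), with an adjusted p = 0.452 in edgeR. Mitochondrial ribosomal proteins lay higher in 45 of 75 genes in the knockout (median 0.05) and 23 of 75 with the plasmid (median -0.05). MRPL10 was at 8.59 and 8.23 FPKM in PC3 EphA2 KO, against 15.99 and 18.2 FPKM in PC3 control (log2 fold change -1.001, SE 0.12, adjusted p = 0.0719 in edgeR; adjusted p = 2.20e-09 in DESeq2), where the 2 PC3 controls stood above the other 6 libraries, at 9.46 FPKM or less. MRPL30 was at 3.89 and 3.77 FPKM in PC3 EphA2 KO, against 12.6 and 12.9 FPKM in PC3 control (log2 fold change -1.72, SE 0.45, adjusted p = 0.566 in edgeR; adjusted p = 0.00528 in DESeq2), and the 2 DU145 controls, at 11.6 and 3.503 FPKM, differed as widely. MRPS27 was at 8.15 and 9.20 FPKM in DU145 EphA2 OE, against 12.45 and 16.2 FPKM in DU145 control. MRPS27 had a log2 fold change of -0.77 (SE 0.21), with an adjusted p = 0.437 in edgeR. DESeq2 gave MRPS27 an adjusted p = 0.0405.

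The other genes with the smallest p of their list in the knockout, with their log2 fold changes, were NDUFAF6 (0.35), SDHAF2 (0.59), RRM2B (-0.25), TBRG4 (-0.25), FASTKD3 (-0.31), MTERF3 (0.18), ATP5MJ (0.30), ATP5MK (0.23) and PDHX (-0.48). With the plasmid they were TMEM126A (-0.24), COA5 (0.47), DGUOK (0.30), FASTKD1 (-0.35), MRPL3 (-0.60), MTERF4 (-0.48), DMAC2L (1.15) and DLST (-0.49). None of these passed the threshold in edgeR.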

How the data were processed

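RNA from 8 libraries was selected with oligo(dT), fragmented and sequenced as read pairs with a dUTP-marked second strand, per the labels' protocols. The deposited table held raw gene counts and FPKM made by the authors. Per the submitters' processing notes cutadapt 1.9, HISAT2 2.2.1, StringTie 2.1.6, DESeq2, edgeR and the GRCh38 build were used; the settings are not given here. FPKM were used as deposited for levels and the counts for tests.

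Members were found by gene name. Members and lists were chosen with earlier results of these data known. Named genes were all 13 mitochondrial mRNAs; in each complex and comparison the nuclear member with the smallest p, the highest and the lowest fold change, and the highest and lowest level; from each further list the 2 genes with the smallest p in the knockout and the plasmid comparison; and nuclear copies with a mean count above 100. NDUFA9, NDUFA12, NDUFB8, ATP5PO, SDHC and further core subunits of complex I were added after their values were seen. The filter was filterByExpr with a minimum count of 10 and a minimum total of 15, which left 22727 genes; counts were scaled by TMM (factors 0.973 to 1.03) and fitted with edgeR 4.0.16 (R 4.3.3, limma 3.58.1) over all 4 groups without a covariate, leaving 4 residual degrees of freedom, with Benjamini-Hochberg adjustment over all tested genes. DESeq2 1.42.0, limma on log2 FPKM, other filters, the replicate number as a block, exchanged controls and leaving out each library were alternatives. The scripts were tested on simulated data. Libraries held 57571919 to 60951530 counts, and the lowest count of a member was 901. The labels do not tell whether a group's 2 replicates were grown apart, so the spread behind each p-value may be only technical; replicates were distinct (chi-square per degree of freedom 42.4 to 93.0). Transcript lengths and mitochondrial sequence came from GENCODE 29, promoters from RefSeq. The results of 1 member and of 1 marker list are not reported here.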

Additional observations from a re-analysis of the deposited data

How the results depend on the processing

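No member passed the adjusted threshold in the 4 comparisons under the alternatives run, 19 for the knockout and the plasmid comparison; the fit of the 4 libraries of a line alone was not run for the difference or between the lines. Called genes in the knockout comparison were 190 in DESeq2, 16 in limma on log2(FPKM + 0.1), 13 with the controls exchanged and 0 with the replicate block, and 6 to 27 when a library was left out. In the plasmid comparison they were 309 in DESeq2, 4 with no filter, 0 with the 4 libraries of the line alone and 3 with the replicate block, and 3 to 376 when a library was left out. For the difference of responses they were 410 in DESeq2, 19 at a mean CPM of at least 1, 3 with the replicate block, 16 with the controls exchanged and 16 with nuclear copies joined (chosen after seeing the data), and 11 to 323 when a library was left out. Between the lines they were 222 in DESeq2, 28 in limma on log2(FPKM + 1), 9 with the replicate block and 7 with the controls exchanged, and 14 to 45 when a library was left out. Exchanging the controls turns the difference and the contrast between the lines into each other, rescaled and with the sign turned. Its values for these contrasts are thus no separate check. The median log2 fold change of nuclear members stayed at 0.110 to 0.142 in the knockout when a library was left out, but ran from -0.102 to 0.134 with the plasmid, from -0.00895 to 0.209 for the difference and from -0.0662 to 0.0344 between the lines. The median of mitochondrial mRNAs ran from -0.0219 to 0.0966, from -0.0583 to 0.00318, from -0.0157 to 0.180 and from 0.0238 to 0.0918 in the same comparisons. The difference had a nuclear median of 0.0276 over members that overlap no other gene, 0.0177 in limma on log2(FPKM + 1), 0.0187 on log2(FPKM + 0.1) and 0.0201 with the controls exchanged, where the mitochondrial median was -0.114. As a share of nuclear counts, nuclear members held 0.777% in PC3 EphA2 KO and 0.740% in PC3 control, and 0.749% in DU145 EphA2 OE and 0.731% in DU145 control; mitochondrial mRNAs were 7.97% and 7.92% of that total in PC3 EphA2 KO and PC3 control, and 8.075% and 8.11% in DU145 EphA2 OE and DU145 control. Deviations from the group mean, over 8258 genes, were correlated between same-numbered libraries of each pair of groups. The correlation was 0.195 for PC3 EphA2 KO with DU145 control and 0.159 for PC3 control with DU145 EphA2 OE. The other pairs ran from -0.0390 to 0.00253. Whether same-numbered libraries share a batch was not tested. The replicate block left the nuclear medians at 0.127, 0.00684, 0.0878 and -0.0073 in the 4 comparisons. Where a value moved, the cause was not tested. The lowest count of a member was 901, and each group had 2 libraries.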
